A study of Mus musculus with 6 samples.

Results

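Estrogen and progesterone response genes were examined in mammary epithelial cells as 8 genes fixed by symbol, namely *Tnfsf11*, *Stc2*, *Calcr*, *Greb1*, *Cited1*, *Xbp1*, *Ccnd1* and *Ctsd*. They were the 8 rows of the deposited matrix, of 61880 in all, that carry these symbols, and for each gene the rows of its assembled locus were also added together. RNA came from isolated inguinal mammary epithelial cells of pubertal females aged 6 to 8 weeks on the FVB/NJ background, in 3 pooled samples from transgenic *fat-1* mice and 3 from wildtype (WT) mice. The *fat-1* transgene is a worm desaturase with which all tissues can make *n*-3 PUFA out of *n*-6 PUFA, and both genotypes had lifelong the same diet with 10% fat by weight from safflower oil. Each sample pooled the glands of several mice, with lymph nodes removed, so that a genotype is represented by 3 pools and not by individual animals. The matrix has 0 rows for the worm transgene, and the genotype could not be checked in the counts. The comparison asks whether genes driven by these hormones differ between the genotypes. The paper names as a limit that no estrous stage was determined for the mice. It states that this could add variability, since progesterone is higher in diestrus. The part of the estrous stage in the levels was not tested.

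Estrogen binds the receptor ESR1, which then acts as a transcription factor, and among the genes it induces is *Pgr*, the receptor for progesterone. In the mammary gland both receptors are found in a class of luminal cells called hormone-sensing cells, which pass the signal to neighboring luminal and basal cells through secreted proteins. At puberty estrogen drives the growth of the ducts, and progesterone drives side branching.

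Promoter windows of RefSeq (GRCm38.p6), which hold 250 bases before and 50 bases after a start site, were at hand for 7 of the 8 genes, in 11 windows. Estrogen receptors bind a palindrome, searched here as GGTCA followed after any 3 bases by its reverse complement TGACC, which was in 0 of the 11 windows and in 0.07% of all windows. The single element AGGTCA, searched on both strands and also able to lie within longer elements, was in 3 of the 11 windows and in 16.3% of all windows. The palindrome ACANNNTGT, the core of sites for the progesterone receptor and for other steroid receptors, was in 1 of the 11 windows, that of a second start of *Greb1*, and in 6.85% of all windows. The stretches around the 3 AGGTCA elements are shown because they hold all matches to AGGTCA in these windows, in capitals and in each case as its reverse complement, TGACCT. The element begins 88, 241 and 217 bases before a start site of *Greb1*, *Ctsd* and *Cited1*, on the minus strand at chr12:16800957-16800986, chr7:142388051-142388077 and chrX:102250976-102251005. The window of *Cited1* lies within the annotated gene, and its start was not matched to a transcript at hand. Nor was the start of the only window of *Xbp1*. The windows of *Calcr*, *Tnfsf11*, *Xbp1* and *Stc2* held no AGGTCA, and a relation of the element to the levels was not tested.
Greb1: ccaagcaacaaaTGACCTctgtccccggag
Ctsd: tcccccacgTGACCTgtatccagtcat
Cited1: cttttaacgttgTGACCTtgggttaagtta

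The 250 bases before this start site of *Greb1* (chr12:16800887-16801136, minus strand) are given because its AGGTCA element lies nearest to a start site.
Greb1: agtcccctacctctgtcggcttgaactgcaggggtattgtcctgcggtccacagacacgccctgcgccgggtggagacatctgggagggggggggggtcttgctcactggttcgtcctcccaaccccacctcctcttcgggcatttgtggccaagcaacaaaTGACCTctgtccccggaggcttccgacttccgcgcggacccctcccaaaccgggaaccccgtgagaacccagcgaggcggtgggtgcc

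The counts of the samples summed to between 204539059 and 232148824. Levels are in CPM, counts scaled to a pool's total after TMM normalization and summed over the rows of a locus, and a log2 fold change is that of *fat-1* over WT. Markers of luminal epithelial cells were present in all samples but unequal, and their mean log2(CPM + 1) was 8.16, 6.10 and 7.04 in *fat-1* pools 1 to 3 and 7.92, 7.19 and 6.21 in WT pools 1 to 3. The 8 luminal markers, of which 0 were called, summed to 850 to 3638 CPM in the *fat-1* pools and 887 to 2877 CPM in the WT pools. The mean of the immune markers was 5.23, 6.23 and 5.83 in the *fat-1* pools and 5.23, 5.54 and 6.29 in the WT pools, so that *fat-1* pool 2 and WT pool 3 had the least luminal and the most immune RNA. Basal epithelial markers were lowest in the same pools, with means of 5.76, 4.15 and 5.11 in the *fat-1* pools and 5.77, 4.97 and 4.15 in the WT pools, so that both epithelial classes moved together. *Fat-1* pool 1 also stood apart with a mean of 7.36 for the fibroblast markers, against 8.64 to 9.50 in the other 5 pools. None of the 6 basal, 6 hormone-sensing, 5 fibroblast, 4 endothelial and 5 adipocyte markers passed the adjusted threshold in edgeR's quasi-likelihood fit. *Fabp4* (unadjusted *p* = 0.0370 in that fit) of the adipocyte and *Cdh5* of the endothelial markers were lower in every *fat-1* pool than in any WT pool. The other markers of both lists overlapped between the genotypes. Fitted log2 fold changes were above 0 for 3 of the 5 adipocyte and 1 of the 4 endothelial markers. Genotypes lay apart in 4.15% of all loci tested, and that fit called 1.14% of them before adjustment. In RNA of whole isolates, fewer cells of a type and less RNA per cell cannot be told apart.

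In none of the 8 genes did *fat-1* and WT pools differ beyond the spread of the samples. In the quasi-likelihood test of edgeR, adjusted after Benjamini and Hochberg over all loci, 0 of the 8 locus sums passed the adjusted threshold of 0.05, beside 0% of the 24061 loci tested. At the unadjusted threshold of 0.05 it was also 0 of 8, beside 1.14% of all loci (274). The 8 rows with the gene symbol gave 0 at either threshold, beside 0% and 2.21% of the 30683 rows tested, and the exact test of edgeR and DESeq2 also gave 0 at both thresholds, for rows and for locus sums. Over all rows, DESeq2 called 0.303% adjusted and 3.02% unadjusted, and the exact test 0.101% and 1.98%. Over all loci these shares were 0.0332% and 1.49% by DESeq2, and 0.0249% and 1.06% by the exact test. All 8 genes passed the filter on low counts, and the adjusted *p*-value of each was 1.00. The values of the genotypes overlapped in all 8 genes, while they lay apart in 4.15% of all loci. The fitted log2 fold change was below 0 for 7 of the 8 genes, beside 49.4% of all loci, with a median of −0.16 for the 8 genes and 0.0018 for all loci.

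**Figure D1:**
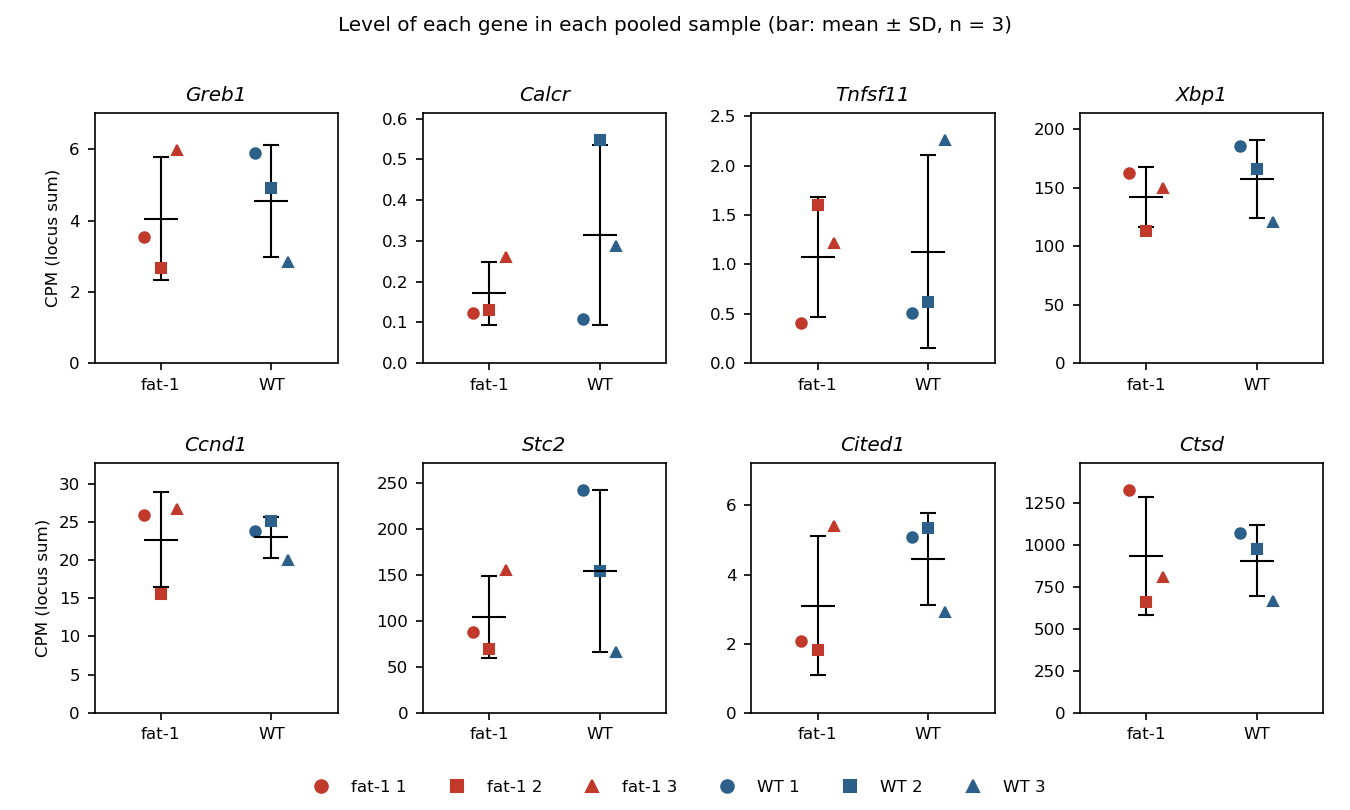
Level of each of the 8 genes (CPM, locus sum, vertical axis from 0) in the 3 *fat-1* and the 3 WT pools, with a bar for the mean ± SD (n = 3). The samples of the genotypes overlap in every panel, and *fat-1* pool 2 and WT pool 3 lie low for most genes but high for *Tnfsf11*.

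Of the secreted proteins, *Tnfsf11* encodes RANKL, by which progesterone-responsive luminal cells signal to cells with the receptor RANK, and which T cells and lymph node stroma also make. *Tnfsf11* (chromosome 14, 78277445 to 78308043, GRCm38, minus strand) had 0.408, 1.599 and 1.22 CPM in *fat-1* pools 1 to 3 and 0.505, 0.622 and 2.26 CPM in WT pools 1 to 3. The highest values were those of WT pool 3 and *fat-1* pool 2, and both genotypes held low and high samples. The mean was 1.07 ± 0.608 CPM (SD, *n* = 3) in the *fat-1* pools and 1.13 ± 0.980 CPM in the WT pools. The log2 fold change was −0.065, with a standard error of 0.71 and a 95% interval from −1.79 to 1.66 in the quasi-likelihood fit of edgeR. It was 0.95 without WT pool 3 and 0.33 without *fat-1* pool 1. *Tnfsf11* moved with the mean of the 8 immune markers. Of these, *Csf1r* was highest in WT pools 3 and 2 (7.76 and 7.46 CPM), and all others in *fat-1* pool 2 and WT pool 3. Of the 8 markers 0 were called and 0 were absent from a pool, with a sum of 653 to 1425 CPM in the *fat-1* pools and 648 to 1476 CPM in the WT pools. The 5 T cell markers summed to 57.0 to 108 and 46.8 to 106 CPM, and the 4 lymph node stroma markers, of which 2 were tested, to 8.52 to 39.4 and 6.01 to 24.1 CPM. Of either list 0 tested genes were called, and their part in the *Tnfsf11* level was not tested.

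*Stc2* encodes stanniocalcin 2, a secreted glycoprotein that estrogen induces in breast cancer cells. *Stc2* (chromosome 11, 31357307 to 31370074, minus strand) had 88.01, 69.5 and 155 CPM in the *fat-1* pools and 243, 154 and 66.5 CPM in the WT pools. The range within the WT pools took in all *fat-1* values, from the lowest sample of all, WT pool 3, to the highest, WT pool 1. The means were 104 ± 44.9 CPM in the *fat-1* pools and 154 ± 88.1 CPM in the WT pools (SD, *n* = 3), a log2 fold change of −0.57 (standard error 0.50, 95% interval −1.78 to 0.65). Without WT pool 1 it was −0.079, and without *fat-1* pool 3 it was −0.97. The interval takes in levels from 0.290 to 1.57 times those of the WT pools.

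*Calcr*, the calcitonin receptor, is a progesterone target in the mammary gland and was the rarest of the 8 RNAs. *Calcr* (chromosome 6, 3685680 to 3764714, minus strand) had 26, 28 and 54 counts in the *fat-1* pools and 23, 124 and 59 counts in the WT pools, or 0.123, 0.131 and 0.260 CPM against 0.108, 0.547 and 0.287 CPM. WT pool 2 had the highest value and WT pool 1 the lowest, with all *fat-1* pools between them. The log2 fold change was −0.89 (standard error 0.62, 95% interval −2.39 to 0.62), the largest fitted difference of the 8 genes, with an unadjusted *p*-value of 0.202 in edgeR's fit. It was −0.20 without WT pool 2. Without WT pool 1 it was −1.29, with an unadjusted *p*-value of 0.0367 by the quasi-likelihood test of edgeR.

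The regulators of transcription are *Greb1*, which estrogen induces and whose protein binds ESR1, *Cited1*, whose protein binds the coactivators EP300 and CREBBP and enhances the response of ESR1, and *Xbp1*, a transcription factor of the unfolded protein response. *Greb1* (chromosome 12, 16670615 to 16800886, minus strand) had 3.54, 2.67 and 5.98 CPM in the *fat-1* pools and 5.90, 4.91 and 2.83 CPM in the WT pools. The highest value was that of *fat-1* pool 3 and the lowest that of *fat-1* pool 2, so the *fat-1* pools spanned the WT pools. The log2 fold change of *Greb1* was −0.16 (standard error 0.38, 95% interval −1.09 to 0.76), and leaving out *fat-1* pool 2 gave 0.064 and leaving out WT pool 1 gave 0.070. The exons of *Greb1* share 736 of 9580 bases with *Gm48140* on the opposite strand, which had between 0 and 10 counts per sample.

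*Cited1* (chromosome X, 102247381 to 102252181, minus strand) had 2.07, 1.82 and 5.41 CPM in the *fat-1* pools and 5.08, 5.34 and 2.93 CPM in the WT pools. *Fat-1* pool 3 had the highest level of the 6, while the other *fat-1* pools had the lowest levels. The mean was 3.10 ± 2.01 CPM (SD, *n* = 3) against 4.45 ± 1.32 CPM, which gave a log2 fold change of −0.52 (standard error 0.47, 95% interval −1.67 to 0.62). Without *fat-1* pool 3 it was −1.20, with an unadjusted *p*-value of 0.0124 by edgeR's quasi-likelihood test and an adjusted *p*-value of 1.00, and without *fat-1* pool 2 it was −0.25.

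*Xbp1* (chromosome 11, 5520659 to 5525893, plus strand) had 162, 113 and 150 CPM in the *fat-1* pools and 186, 166 and 120 CPM in the WT pools. WT pools 1 and 2 had the highest levels, and WT pool 3 lay below *fat-1* pools 1 and 3. The log2 fold change was −0.15 (standard error 0.20, 95% interval −0.64 to 0.34), and was −0.011 without WT pool 1 and also without *fat-1* pool 2. *Xbp1* is also high in plasma cells, of which the 5 markers summed to 140 to 165 CPM in the *fat-1* pools and 141 to 180 CPM in the WT pools, with 0 genes called and *Tnfrsf17* under 1 CPM in all samples. *Sdc1*, which epithelium also expresses, gave 58.4 to 137 CPM of the sum and was lowest in *fat-1* pool 2 and WT pool 3, whereas *Jchain* (16.02 and 10.5 CPM) and *Mzb1* (65.0 and 68.5 CPM) were highest in these 2 pools. The remaining markers of the list did not follow this pattern. *Derl3* had 1.03 CPM in *fat-1* pool 2 and 1.04 CPM in *fat-1* pool 3, and *Tnfrsf17* was highest in *fat-1* pool 1 (0.0996 CPM). The part of plasma cells in the *Xbp1* level was not tested. The *Xbp1* locus has 2 rows of nearly equal size, and the row with the symbol held 52.5% ± 3.56 of the counts (SD, *n* = 3) in the *fat-1* pools and 52.2% ± 4.45 in the WT pools. This share did not differ beyond the spread of the samples (two-sided exact permutation *p* = 1). The row alone had a log2 fold change of −0.15 and the row without a symbol one of −0.14 (standard errors 0.25 and 0.21), so the fitted differences of both rows had the same sign.

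Of the effectors, *Ccnd1* encodes cyclin D1, which with CDK4 or CDK6 takes cells into the division cycle, and *Ctsd* encodes cathepsin D, a protease of lysosomes that estrogen induces in breast cancer cells. *Ccnd1* (chromosome 7, 144929931 to 144939925, minus strand) had 25.8, 15.5 and 26.6 CPM in the *fat-1* pools and 23.8, 25.1 and 20.01 CPM in the WT pools. *Fat-1* pool 2 was the lowest and WT pool 3 the next, while the other 4 pools lay between 23.8 and 26.6 CPM. The log2 fold change of *Ccnd1* was −0.020 (standard error 0.23, 95% interval −0.57 to 0.53), and 0.19 when *fat-1* pool 2 was left out. The exons of *Ccnd1* share 1100 of 4709 bases with the gene *LTO1* on the opposite strand, which had between 3227 and 3555 counts per sample, and since the use of strand is not stated, the *Ccnd1* counts are uncertain.

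*Ctsd* (chromosome 7, 142375911 to 142388038, minus strand) had 1328, 657 and 811 CPM in the *fat-1* pools and 1072, 974 and 667 CPM in the WT pools. The highest level was that of *fat-1* pool 1, and *fat-1* pool 2 and WT pool 3 had the lowest. The mean was 932 ± 351 CPM (SD, *n* = 3) against 904 ± 211 CPM, which gave a log2 fold change of 0.043 (standard error 0.30, 95% interval −0.67 to 0.76), and it was −0.29 without *fat-1* pool 1. The row with the symbol held 99.3% ± 0.200 of the 4 rows of the locus in the *fat-1* pools and 99.4% ± 0.121 in the WT pools. The other rows were those of *Ifitm10*, of the overlapping *Gm49369* and of a transcript without a symbol, and without *Ifitm10* and *Gm49369* the log2 fold change of the locus was 0.041. Macrophages are also rich in *Ctsd*, and their 5 markers summed to 725 to 895 CPM in the *fat-1* pools and 774 to 829 CPM in the WT pools, with 0 genes called and 0 absent. *Cd68* alone made up 668 to 860 CPM of this sum and was highest in *fat-1* pool 1, as *Ctsd* was, while *Adgre1*, *Csf1r*, *Mrc1* and *Lyz2* were all lowest in that pool. The part of these markers in the *Ctsd* level was not tested.

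**Figure D2:**
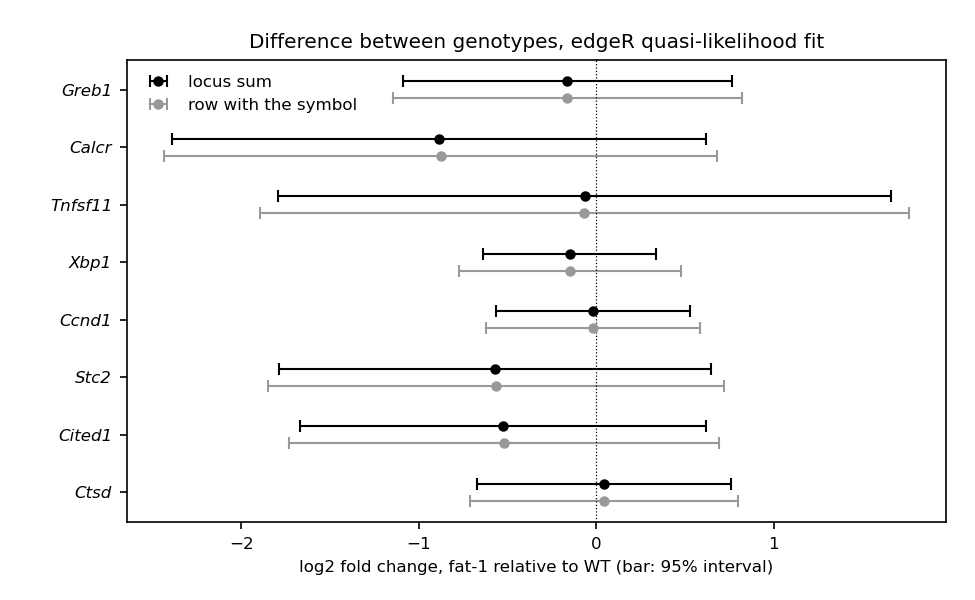
Log2 fold change of each gene for *fat-1* relative to WT with its 95% interval in edgeR's quasi-likelihood fit (horizontal axis), for the locus sum (black) and the row with the symbol (grey). Every interval includes 0, and the intervals of *Calcr*, *Tnfsf11*, *Stc2* and *Cited1* are the widest.

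Per length, *Ctsd* had the highest level of the 8 genes and *Calcr* the lowest. On the scale of CPM per kb of annotated exon, for *Ctsd* from the row with the symbol and for the other genes from the locus sum, the median over the 6 pools was 378 for *Ctsd*, 48.1 for *Xbp1*, 23.4 for *Stc2*, 5.20 for *Ccnd1*, 2.28 for *Cited1*, 0.441 for *Greb1*, 0.411 for *Tnfsf11* and 0.0499 for *Calcr*. *Greb1* and *Tnfsf11* did not differ beyond their spread, and *Greb1* had the higher level of the pair in 4 of the 6 pools. The ranges of *Xbp1* (34.8 to 57.2 CPM per kb) and *Stc2* (12.8 to 46.9 CPM per kb) overlapped over the samples, although *Xbp1* was above *Stc2* in 6 of 6 samples. The *Xbp1* level here takes in the row without a symbol. From the row with the symbol alone, *Xbp1* would not lie above *Stc2* in every sample. In WT pool 1 that row had 106 CPM over 3248 bases of exon, against 243 CPM over 5175 bases for *Stc2*. All other neighbors in this order had ranges that lay apart.

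**Figure D3:**
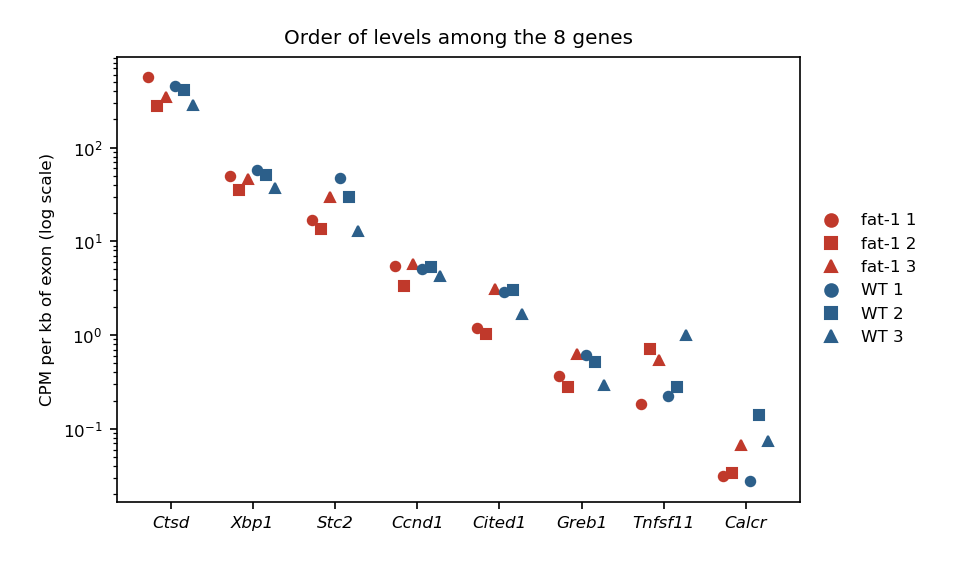
Level of each gene in CPM per kb of exon (log scale) in each of the 6 pools, ordered by the median. The order runs from *Ctsd* at 278 to 562 CPM per kb to *Calcr* at 0.0275 to 0.140 CPM per kb, and *Greb1* and *Tnfsf11* overlap.

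The 8 genes varied between samples to unequal degrees. The ratio of the highest to the lowest sample was 1.64 for *Xbp1*, 1.72 for *Ccnd1*, 2.02 for *Ctsd*, 2.24 for *Greb1*, 2.98 for *Cited1*, 3.65 for *Stc2*, 5.09 for *Calcr* and 5.54 for *Tnfsf11*. Over 14659 loci with a mean of at least 1 CPM, a set that *Calcr* is too low to be in, the median was 1.42 and the 90th percentile 2.94. *Xbp1*, *Ccnd1*, *Ctsd* and *Greb1* lay below that percentile. *Fat-1* pool 2 and WT pool 3 were the 2 lowest samples for 5 of the 8 genes (*Greb1*, *Xbp1*, *Ccnd1*, *Stc2* and *Ctsd*), as for 19.6% of all loci tested. They were the 2 highest for *Tnfsf11*, as for 16.2% of all loci.

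The levels were compared over the 6 pools with the mean log2(CPM + 1) of the luminal and of the immune markers, 16 relations in all, with exact permutation *p*-values adjusted over them. *Ctsd* ranked the 6 pools exactly as the luminal markers did (Pearson's r = 0.975, with an exact permutation *p* of 0.00139, or 0.0222 adjusted, and Spearman's rho = 1.00, with an exact *p* of 0.00278, or 0.0444 adjusted). *Tnfsf11* followed the immune markers (r = 0.975, with an exact permutation *p* of 0.00278, or 0.0222 adjusted, and rho = 0.943, with an exact *p* of 0.0167, or 0.0889 adjusted). *Tnfsf11* also ran against the luminal markers (r = −0.931, with an exact permutation *p* of 0.00694, or 0.0311 adjusted, and rho = −0.943, with an exact *p* of 0.0167, or 0.0889 adjusted). With the 2 samples left out whose marker level was farthest from its median, r was 0.957 for *Ctsd*, and 0.954 and −0.936 for *Tnfsf11*.

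*Ctsd* and *Xbp1* ran against the immune markers (r = −0.965 and −0.942, with exact permutation *p* of 0.00833 and 0.00972, or 0.0311 adjusted for both, and rho = −0.886 for both, with an exact *p* of 0.0333, or 0.107 adjusted), with r of −0.902 and −0.766 without the 2 farthest samples. *Xbp1* against the luminal markers did not pass the adjustment (r = 0.907, with an exact permutation *p* of 0.0347, or 0.0926 adjusted, and rho = 0.829, with an exact *p* of 0.0583, or 0.156 adjusted), while leaving out the 2 farthest samples gave an r of 0.984. The other 5 genes had adjusted *p*-values of at least 0.184 for r with either marker list. The luminal and the immune markers move against each other in these samples, and all levels share the total of their library, so the relations to both lists are not independent. With the mean of the luminal markers as a covariate in edgeR's fit, 0 of the 8 genes passed the adjusted threshold, as did 0% of all loci and 0% of all rows, so the fit does not set the 8 genes apart. The part of the immune content in the levels was not tested.

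*Stc2*, *Cited1* and *Greb1* were not high in *fat-1* pool 1, which had the highest luminal level of all. In log2 units relative to the mean of the hormone-sensing markers *Esr1*, *Pgr*, *Prlr*, *Foxa1*, *Tbx3* and *Prom1*, *Stc2* was at 0.61, 1.98 and 2.01 in the *fat-1* pools and at 1.76, 1.81 and 1.73 in the WT pools. *Fat-1* pool 1 thus had less *Stc2* for its level of these markers than the other 5 pools, which lay within a narrow range. *Cited1* on the same scale was at −4.25, −2.67 and −2.59 in the *fat-1* pools and at −3.57, −2.80 and −2.37 in the WT pools, again with *fat-1* pool 1 lowest. *Greb1* was at −3.69, −2.29 and −2.47 in the *fat-1* pools and at −3.38, −2.90 and −2.41 in the WT pools. These markers were looked at relative to *fat-1* pool 1 after its values were seen, and no test was run. Taken relative to the luminal epithelial markers, the genotypes overlapped in all 8 genes. The differences on the log2 scale ran from −0.48 for *Cited1* to 0.014 for *Tnfsf11*, with two-sided exact permutation *p*-values from 0.6 to 1, where 3 against 3 samples cannot give less than 0.1. Subtracting the marker mean widened the range over the 6 pools for all 8 genes, for *Tnfsf11* from 1.21 to 3.17, which itself favors overlap. For *Calcr* the 1 added to the CPM exceeds its levels and shrinks its difference to −0.15. In edgeR's fit with the luminal covariate its log2 fold change was −0.89.

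**Figure D4:**
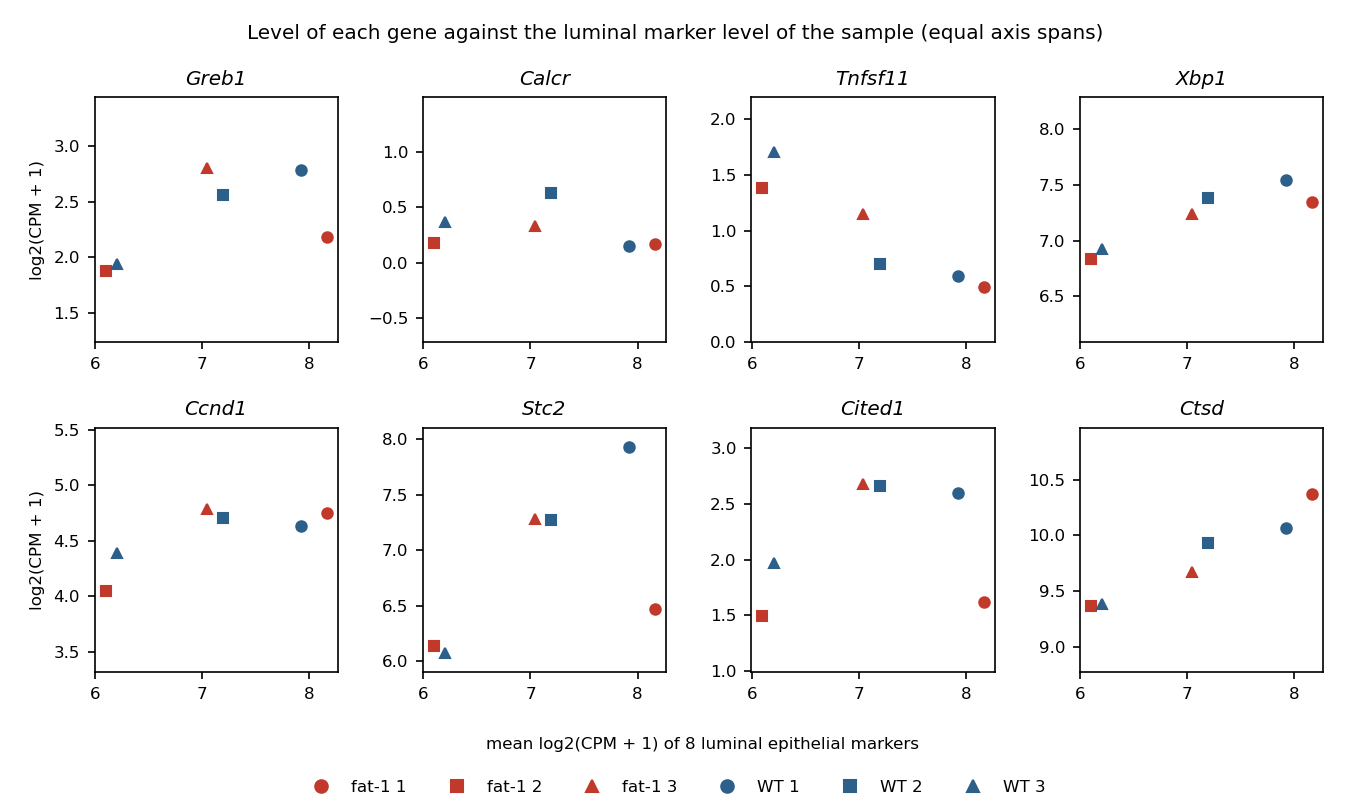
Level of each gene, log2(CPM + 1), against the mean log2(CPM + 1) of 8 luminal epithelial markers in each sample, with the same span on every vertical axis. *Ctsd* rises with the luminal level and *Tnfsf11* falls, the relation of *Xbp1* (r = 0.907) did not pass the adjustment, and *fat-1* pool 1, at the right, is low for *Stc2* and *Cited1*.

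The receptors through which these genes respond were present in all samples. *Pgr* had 213, 67.2 and 146 CPM in the *fat-1* pools and 243, 147 and 72.8 CPM in the WT pools, and *Esr1*, the estrogen receptor, had 19.4, 9.00 and 14.1 CPM and 23.3, 15.4 and 8.05 CPM. Both were lowest in *fat-1* pool 2 and WT pool 3, and the genotypes overlapped. The log2 fold changes were −0.12 for *Pgr* (standard error 0.54) and −0.14 for *Esr1* (standard error 0.43).

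Of 30 other genes of estrogen and progesterone signaling, 28 had enough counts to be tested. Of these, 0 passed the threshold of 0.05 in edgeR's quasi-likelihood fit, adjusted or not, beside 0% and 1.14% of all loci. The fitted log2 fold change was above 0 for 13 genes and below 0 for 15, beside 49.4% of all loci below 0. The median was −0.055 beside 0.0018 for all loci. *Esr2*, the other estrogen receptor, had at most 3 counts in any sample, and the estrogen-induced *Tff3* had 0 counts in all samples. The smallest unadjusted *p*-values were 0.224 for *Myb*, a transcription factor of which estrogen raises the expression in breast cancer cells, 0.284 for *Areg*, the estrogen-induced growth factor of ductal growth, and 0.336 for *Greb1l*, a relative of *Greb1*. *Areg* had 19.9, 7.27 and 14.3 CPM in the *fat-1* pools and 22.6, 25.7 and 11.03 CPM in the WT pools, which overlapped. *Myb* had 10.3, 17.4 and 13.7 CPM against 14.6, 15.9 and 20.9 CPM. The *fat-1* pools of *Greb1l* (0.900 to 0.923 CPM) all lay above the WT pools (0.666 to 0.861 CPM). It was the only 1 of the 28 tested genes whose genotypes did not overlap. Over all loci the genotypes lay apart in 4.15%, with the *fat-1* pools higher in 1.79%.

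**Figure D5:**
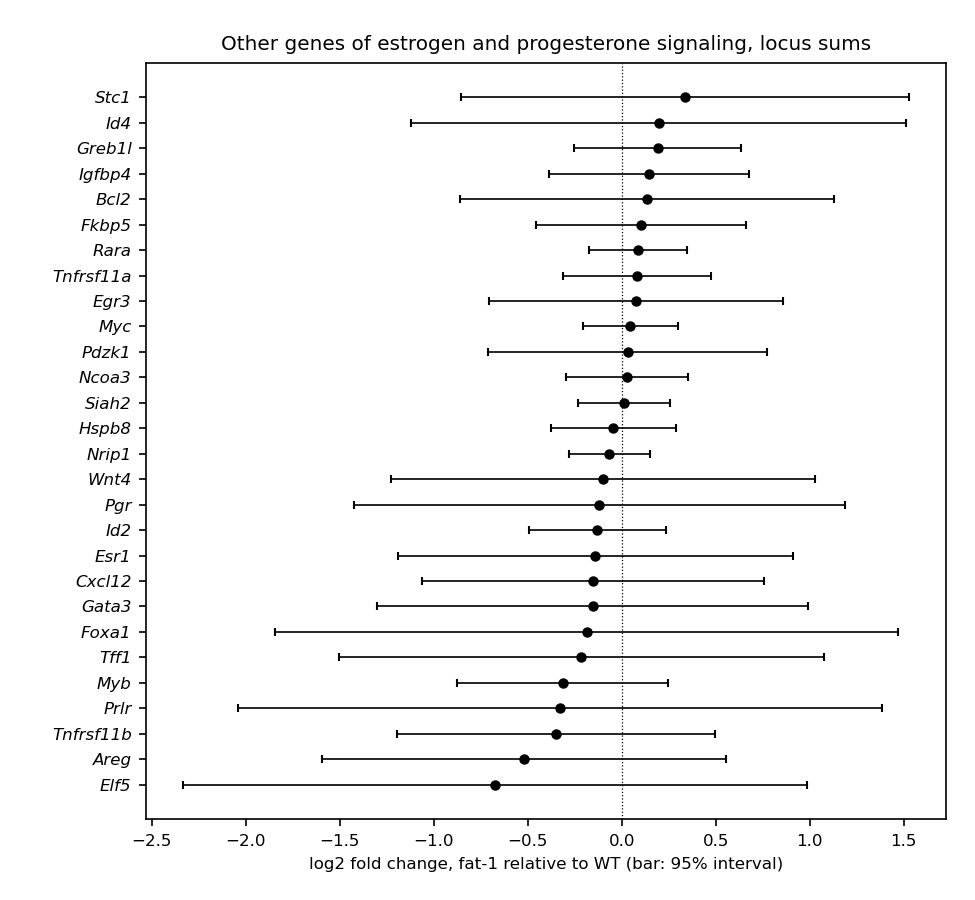
Log2 fold change of the locus sum for *fat-1* relative to WT with its 95% interval (horizontal axis) of 28 other genes of estrogen and progesterone signaling, ordered by value. All intervals include 0, and those of *Elf5*, *Prlr* and *Foxa1* are among the widest.

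Of 20 genes whose proteins act with those of the 8 genes, all were tested as locus sums and 0 passed either threshold of the quasi-likelihood test. Over all loci 0% passed the adjusted and 1.14% the unadjusted threshold. The fitted log2 fold changes were above 0 for 7 and below 0 for 13, beside 49.4% of all loci below 0. Their median was −0.032, beside 0.0018 for all loci. *Tnfrsf11a*, which encodes RANK, had 6.17 to 8.81 CPM in the *fat-1* pools and 6.72 to 7.42 CPM in the WT pools, and *Tnfrsf11b*, the decoy receptor osteoprotegerin, had 0.479 to 1.11 CPM and 0.781 to 1.18 CPM. The smallest unadjusted *p*-values of the list were 0.290 for the coactivator *Ep300*, 0.314 for the lysosomal protease *Ctsb* and 0.353 for *Calca*, which encodes calcitonin. *Ctsb* was at 665 to 991 CPM in the *fat-1* pools and 742 to 1116 CPM in the WT pools, and in contrast to *Ctsd* it was lowest in *fat-1* pool 1. Another lysosomal protease of the list, *Ctsl*, was highest in *fat-1* pool 1, as *Ctsd* was, with 713 CPM against 432 to 657 CPM in the other pools.

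The genes most like each member over the 6 pools were those whose centered log2(CPM + 1) had the smallest root mean square difference from the member's, among the loci of known symbol (predicted genes left out) with a mean of at least 1 CPM. They were *Alox15* and *Cd276* for *Greb1* (differences of 0.0708 and 0.0731), *Egflam* and *Phf24* for *Cited1* (0.126 for both), and *Fzd10* and *Kank3* for *Stc2* (0.140 and 0.145). For *Xbp1* they were *S100a11* and *Mgat5* (0.0278 and 0.0383), for *Ctsd* *Yes1* and *Scamp1* (0.0197 and 0.0397), and for *Ccnd1* *Sdc2* and *Klhl23* (0.0637 and 0.0697). *Tnfsf11* was most like *Ighv1-22*, an immunoglobulin variable segment of B cells, and *Fanci* (0.0457 and 0.0470), and *Calcr* was nearest to *Tbce* and *Igsf9b* (0.0457 and 0.0461). The likeness for *Calcr* is set by the pseudocount of 1, which is larger than its levels, and *Tbce* itself ranged only from 120 to 169 CPM. *Ighv1-22* had 1.598, 3.93 and 2.99 CPM in the *fat-1* pools and 1.65, 1.81 and 4.71 CPM in the WT pools, so that the samples high for *Tnfsf11* were also high for it. For each gene at least 10966 loci were searched over only 6 samples, and no function is implied.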

How the data were processed

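RNA of 6 pooled samples of isolated mammary epithelial cells was sequenced in paired-end reads. The authors used HISAT2 for alignment (GRCm38) and StringTie to build and quantify transcripts. The deposited estimated counts are whole numbers and not normalized. Annotation, strand setting and the step from coverage to counts are not given in the sources used here. A sample's genotype was taken from the labels, and 0 columns were left without a sample. The members and gene lists were chosen with earlier results of these data known.

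Rows that share a locus number were summed (53912 loci). Rows and loci were each fitted by quasi-likelihood in edgeR 4.0.16 under R 4.3.3 (filterByExpr, TMM, genotype as the only term, Benjamini–Hochberg adjustment, threshold 0.05), and standard errors were derived from the log2 fold change and F. Scores are means of log2(CPM + 1). Single values were compared by two-sided exact permutation tests. Nothing says whether pools share litters, so *p*-values measure the spread between these pools. With totals of 204539059 to 232148824 counts, the spread between few pools limits the precision, for *Calcr* (23 to 124 counts) too. Exon lengths and positions are from GENCODE vM21 (GRCm38). Genes named were all 8 members, the 3 of each pathway list with the smallest *p*-value, *Esr1* and *Pgr*, further genes of the lists where a sentence on the members needed them, chosen after their values were seen, and the 2 loci of known symbol most like each member. Other lists were markers of luminal epithelial, hormone-sensing, basal, immune, T, plasma, macrophage, lymph node stroma, fibroblast, endothelial and adipocyte cells. Alternatives were DESeq2 1.42.0, edgeR's exact test and older fit, RLE normalization, no filter, a replicate block, a luminal marker covariate and leaving out each sample. The tests were tried only on simulated counts with a smaller spread than these data, whose common coefficient of variation was 0.302 for loci and 0.451 for rows. The trial does not show what the tests can detect here. Figures were made with Python 3.11.15 and matplotlib 3.10.9.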

Additional observations from a re-analysis of the deposited data

How the results depend on the processing

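The count of the 8 genes with an adjusted *p*-value at or under 0.05 was 0 under every alternative run, for rows and for locus sums. Over all rows, DESeq2 gave 93 and edgeR's exact test 31 instead of 0 (678 at the unadjusted threshold), and over all loci 8 and 6 instead of 0 (274 unadjusted). Leaving out each sample gave 0 to 2 rows and 0 to 1 loci. The log2 fold change of *Tnfsf11* turned to 0.042 for the row and 0.041 for the locus sum with the replicate block, and to 0.039 for the row with the luminal covariate. No other fold change of a member reversed under an alternative that kept all samples. With a sample left out, it lay between −0.55 and 0.069 for the row and −0.55 and 0.070 for the locus sum of *Greb1*, between −0.47 and 0.93 for the row and −0.47 and 0.95 for the locus sum of *Tnfsf11*, between −0.33 and 0.072 for the row of *Xbp1*, between −0.15 and 0.19 for *Ccnd1* and between −0.29 and 0.24 for *Ctsd*. The cause was not tested.

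Relative to the luminal epithelial markers, the difference between genotypes reversed with the hormone-sensing markers as the reference for *Greb1* (0.084), *Calcr* (0.072), *Xbp1* (0.085) and *Ccnd1* (0.18), and with *Krt8* and *Krt18* for *Tnfsf11* (−0.067) and *Ctsd* (−0.069). With a sample left out it lay between −0.43 and 0.45 for *Greb1*, −0.67 and 0.41 for *Calcr*, −0.67 and 0.82 for *Tnfsf11*, −0.49 and 0.29 for *Xbp1*, −0.43 and 0.37 for *Ccnd1*, −0.81 and 0.15 for *Stc2*, −0.88 and 0.21 for *Cited1*, and −0.27 and 0.26 for *Ctsd*. The share of the *Xbp1* row differed by −1.29 to 2.86 percentage points. The samples share replicate numbers, but their deviations from the genotype means correlated at 0.38, −0.020 and 0.051 in rows and at 0.80, −0.16 and 0.13 in loci for numbers 1 to 3, so the numbers were not taken to pair them. With the replicate block 0 rows and 0 loci passed the adjusted threshold (784 and 376 unadjusted).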
